A study of Mus musculus with 16 samples.

Results

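The chromatin regions described here are the ATAC-seq peaks nearest to the genes for claudins, other tight junction proteins and desmosome proteins in mouse small cell lung cancer (SCLC) cells. The genes were every protein-coding gene whose symbol is Cldn followed by a number, together with *Ocln*, *Tjp1*, *Tjp3*, *Marveld2*, *Marveld3*, *F11r*, *Cgn*, *Cgnl1*, *Dsp*, *Dsg2*, *Dsc2*, *Pkp1*, *Pkp2*, *Pkp3*, *Jup*, *Ppl* and *Evpl*. They came to 40 of 21840 protein-coding genes. A peak was taken when its centre had the start site of one of these genes as the nearest protein-coding start, which held for 194 of the 80367 peaks that the authors listed as changed. The genes of the *Cldn34* group and *Cldnd1* and *Cldnd2*, 12 in all, carry letters in their symbols and were not included.

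The cells were sorted from lung tumors of TKO;Hes1GFP/+ mice, in which floxed Rb, p53 and p130 are deleted by an adenovirus that expresses Cre from the CMV promoter, and in which GFP is read from the endogenous *Hes1* locus. The virus was given into the trachea of mice of mixed gender aged 8 to 12 weeks, and tumors were collected about 6 to 7 months later and pooled within each mouse. GFPhigh cells are the non-NE cells and GFPneg cells the neuroendocrine (NE) cells of the same tumors, so both groups come from mice with the same 3 floxed genes and the same reporter allele. Deletion in the sorted cells was not examined here. The Ad-CMV-Cre virus is not restricted to 1 lung cell type. The sort used antibodies to CD45, CD31, TER-119 and CD24, and 50000 cells were taken per sample. The labels give 4 pairs of populations from 3 mice, since 1 mouse gave 2 libraries of each population (a technical replicate), and 8 libraries run on 2 lanes each.

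Tight junctions close the space between epithelial cells near their apical side. Claudins form the strands and set which ions and solutes can pass, occludin and the other MARVEL proteins and JAM-A sit in the same membrane domain, and ZO proteins and cingulins tie the strands to actin. Desmosomes hold cells together against stretch. Their cadherins, the desmogleins and desmocollins, bind plakoglobin and plakophilins inside the cell, and desmoplakin connects these to keratin filaments.

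Opened below means that a peak was more accessible in GFPhigh than in GFPneg cells, and closed that it was less accessible. Every value for a peak is from the authors' deposited table of the whole comparison: the log2 fold change of GFPhigh over GFPneg with its standard error (SE), the mean normalised read count over all libraries and the adjusted p of the DESeq2 Wald test. The authors listed only peaks with an absolute log2 fold change over 1 and an adjusted p under 0.001. Values per library were not analysed here, so no level is given for 1 group or 1 mouse, and a gene without a listed peak may be accessible in both groups. In pooled nuclei, more cells with an open region and a more open region in each cell cannot be told apart. Peaks of 1 gene lie in the same locus and are not replicates. The strongest opened or closed peak of a gene is the one with the smallest adjusted p.

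The sequences of 7 of these regions are shown as examples of the peaks described below, so that their letters can be read beside the values. Of the opened regions they are those with the smallest adjusted p among the claudins (*Cldn23*), the tight junction scaffolds (*Tjp1*) and the desmosome and plakin genes (*Ppl*), with that of *Cldn18* and the promoter of *Cldn3*. Of the closed regions they are the *Pkp2* peak, which had the smallest adjusted p of the desmosome and plakin genes, and the strongest claudin peak with an AP-1 string (*Cldn6*). Each line gives 200 bases of the plus strand of mm10, read from the genome. Capitals mark the string CATTCC of the TEAD motif in the *Cldn23*, *Tjp1* and *Cldn18* regions, TGANTCA of the AP-1 motif in the *Ppl*, *Cldn6* and *Pkp2* regions, and CAGGTG of the E-box bound by SNAI and ZEB factors in the *Cldn3* promoter, on either strand. The positions are chr8:35898475-35898674 for *Cldn23*, chr7:65469938-65470137 for *Tjp1*, chr16:5136742-5136941 for *Ppl*, chr9:99685321-99685520 for *Cldn18*, chr5:134985600-134985799 for *Cldn3*, chr17:23681167-23681366 for *Cldn6* and chr16:16209811-16210010 for *Pkp2*.
*Cldn23*, opened: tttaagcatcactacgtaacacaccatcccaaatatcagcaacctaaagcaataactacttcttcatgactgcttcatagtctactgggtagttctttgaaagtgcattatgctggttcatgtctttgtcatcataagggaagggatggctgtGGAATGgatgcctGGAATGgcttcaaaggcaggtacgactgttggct
*Tjp1*, opened: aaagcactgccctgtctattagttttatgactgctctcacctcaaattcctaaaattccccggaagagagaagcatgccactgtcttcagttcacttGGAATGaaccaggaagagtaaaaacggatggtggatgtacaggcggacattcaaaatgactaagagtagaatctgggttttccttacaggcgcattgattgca
*Ppl*, opened: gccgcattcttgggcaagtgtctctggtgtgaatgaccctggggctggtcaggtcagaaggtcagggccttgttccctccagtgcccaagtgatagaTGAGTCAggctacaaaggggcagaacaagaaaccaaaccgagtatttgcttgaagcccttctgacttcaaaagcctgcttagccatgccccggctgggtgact
*Cldn18*, opened: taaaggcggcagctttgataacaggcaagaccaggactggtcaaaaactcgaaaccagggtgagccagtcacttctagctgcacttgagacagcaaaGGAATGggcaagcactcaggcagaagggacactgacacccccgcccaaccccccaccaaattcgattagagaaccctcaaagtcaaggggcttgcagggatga
*Cldn3* promoter, opened: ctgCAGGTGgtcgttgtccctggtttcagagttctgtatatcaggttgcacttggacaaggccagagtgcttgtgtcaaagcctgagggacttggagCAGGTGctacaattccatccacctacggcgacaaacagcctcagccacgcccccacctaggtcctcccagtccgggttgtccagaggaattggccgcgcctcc
*Cldn6* exon, closed: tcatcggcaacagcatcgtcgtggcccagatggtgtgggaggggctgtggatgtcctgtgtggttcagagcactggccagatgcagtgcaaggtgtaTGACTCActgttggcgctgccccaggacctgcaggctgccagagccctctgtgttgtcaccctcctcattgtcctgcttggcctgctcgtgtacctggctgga
*Pkp2*, closed: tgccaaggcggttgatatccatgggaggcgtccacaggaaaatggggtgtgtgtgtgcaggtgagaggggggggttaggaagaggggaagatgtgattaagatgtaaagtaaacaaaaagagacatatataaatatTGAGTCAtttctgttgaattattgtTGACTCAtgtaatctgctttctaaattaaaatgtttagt
The AP-1 string of the *Cldn6* region lies in an exon of *Cldn6*, and the *Pkp2* region holds 2 AP-1 strings within the bases shown. A string in a peak is a description of its letters. Binding of a factor was not measured in these data.

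Of the 194 peaks, 133 were opened and 61 were closed. The opened share was 68.6% (95% Wilson interval 61.7 to 74.7, counting error only), against 50.8% of all listed peaks. The median log2 fold change of the opened peaks was 2.81, against 2.92 over all opened peaks, and that of the closed peaks was -2.47, against -2.66 over all closed peaks. The median SE was 0.42 for the opened and 0.38 for the closed peaks. The difference from all listed peaks thus lay in the number of opened peaks, while the median changes were slightly smaller than those of all listed peaks.

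By the role of their proteins, the counts of opened peaks are set beside 50.8% of all listed peaks. The 4 scaffold genes (*Tjp1*, *Tjp3*, *Cgn* and *Cgnl1*) had 31 opened of 34 peaks, and the 3 MARVEL genes (*Ocln*, *Marveld2* and *Marveld3*) had 15 of 16. *F11r* had 3 of 3. The claudins had 58 opened of 92 peaks, the desmosomal armadillo genes (*Pkp1*, *Pkp2*, *Pkp3* and *Jup*) 13 of 17, and the plakin genes (*Dsp*, *Ppl* and *Evpl*) 13 of 22. The desmosomal cadherin genes *Dsg2* and *Dsc2* had 0 of 10. The intervals of the claudins, armadillo genes and plakins overlapped, and genes of 1 role also split, as with 2 opened of 8 *Dsp* peaks and 5 of 5 *Evpl* peaks. No test was made of these shares, since the peaks of a gene are not independent.

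**Figure D1:**
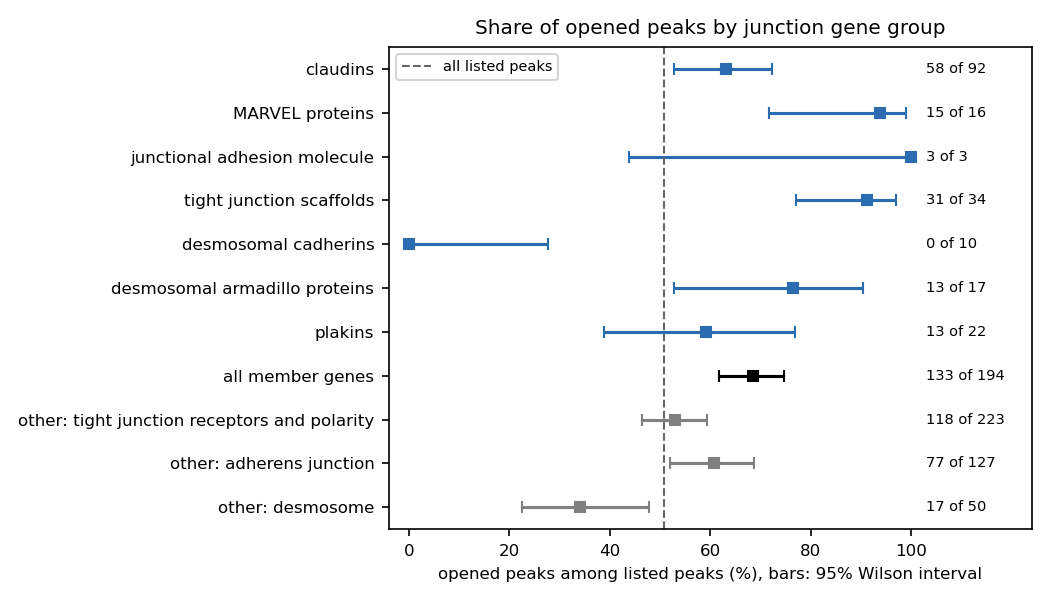
Share of opened peaks among the listed peaks of each gene group (squares, percent) with 95% Wilson intervals (bars) and the share over all listed peaks (dashed line, 50.8%). The scaffold and MARVEL genes lie to the right of the line, the desmosomal cadherins at 0 of 10, and 3 other lists of junction genes are drawn in grey.

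At least 1 peak was assigned to 35 of the 40 genes, against 66.8% of all protein-coding genes. The genes without a listed peak were *Cldn12*, *Cldn13*, *Cldn15*, *Cldn17* and *Cldn24*. Peaks of 14 genes were opened only, those of 7 genes were closed only, and 14 genes had both, against 5374, 3159 and 6048 of the 14581 protein-coding genes with a peak, a similar split. Among the 31 genes with 2 or more peaks, 17 (54.8%) had peaks of 1 direction only, against 44.3% of the 10849 protein-coding genes with 2 or more peaks. The closed-only genes were 5 claudins (*Cldn6*, *Cldn9*, *Cldn11*, *Cldn16* and *Cldn20*) and the cadherins *Dsg2* and *Dsc2*.

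**Figure D2:**
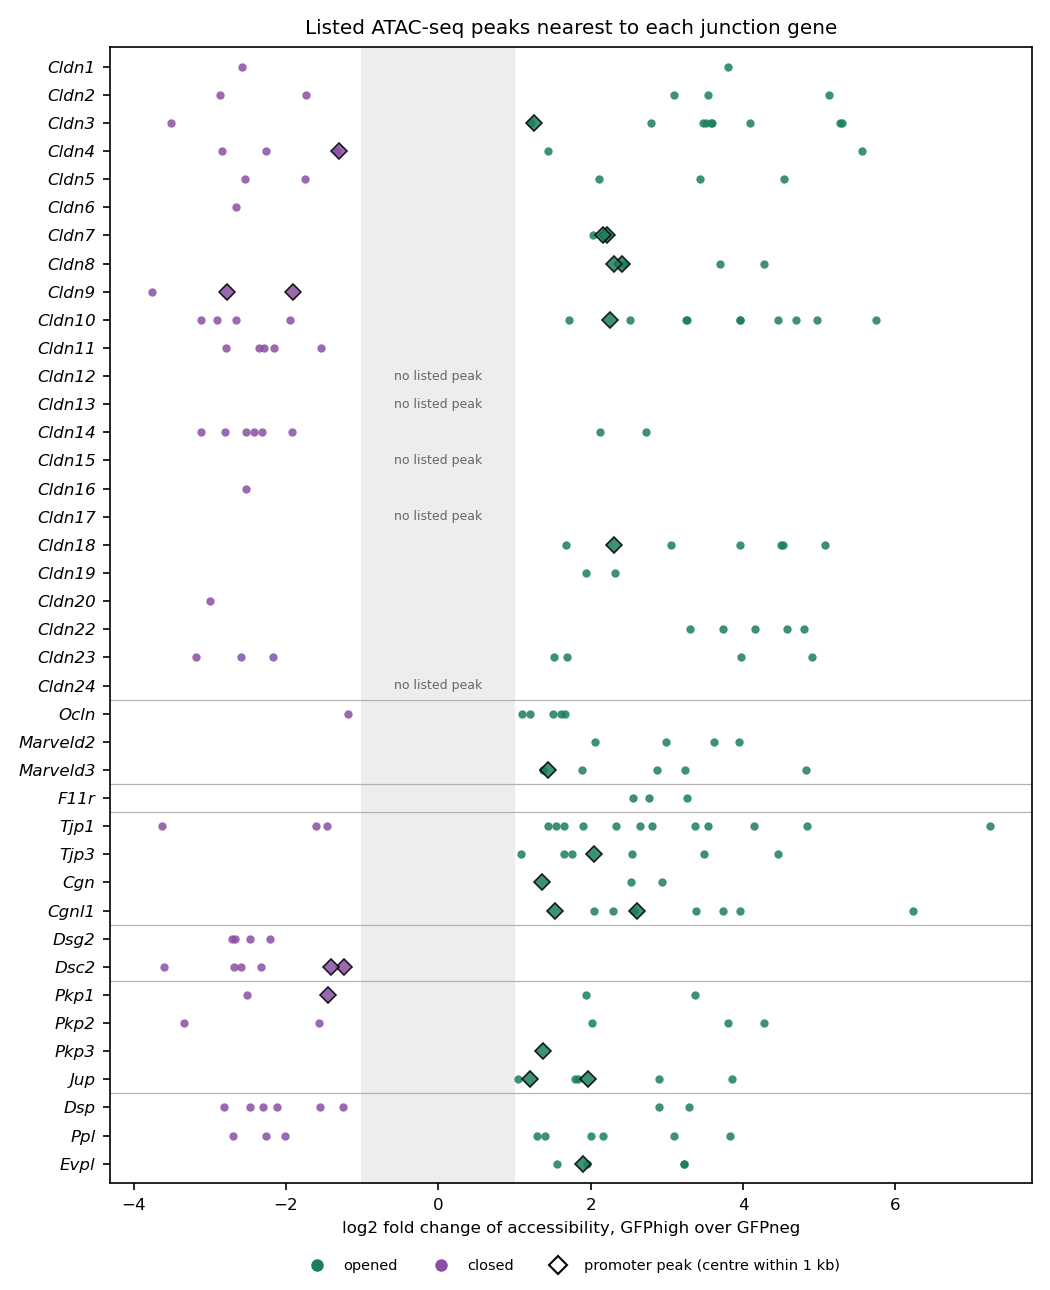
The log2 fold change of GFPhigh over GFPneg (x axis) of each of the 194 listed peaks, in rows by gene and with lines between the groups of genes. Green marks opened and purple closed peaks, diamonds mark promoter peaks, and the grey band holds the changes that the authors did not list. The rows of Tjp3, Cgn, Cgnl1, Cldn8 and Cldn18 hold opened peaks only, and those of Dsg2, Dsc2 and Cldn11 hold closed peaks only.

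A promoter peak was one whose centre lay within 1 kb of the start site. Opened promoter peaks were found at 12 of the 40 genes, against 26.6% of all protein-coding genes, and closed ones at 4, against 8.45%. As a share the former is 30.0% and the latter 10%, both near the background. The opened promoters belonged to *Cldn3*, *Cldn7*, *Cldn8*, *Cldn10*, *Cldn18*, *Marveld3*, *Tjp3*, *Cgn*, *Cgnl1*, *Pkp3*, *Jup* and *Evpl*, and the closed ones to *Cldn4*, *Cldn9*, *Dsc2* and *Pkp1*. No gene had promoter peaks of both directions. The median log2 fold change of the 16 opened promoter peaks was 2.002, against 1.64 over all opened promoter peaks, and their median mean count was 210.3, against 169. The 6 closed promoter peaks had a median of -1.43, against -2.21 over all closed promoter peaks.

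**Figure D3:**
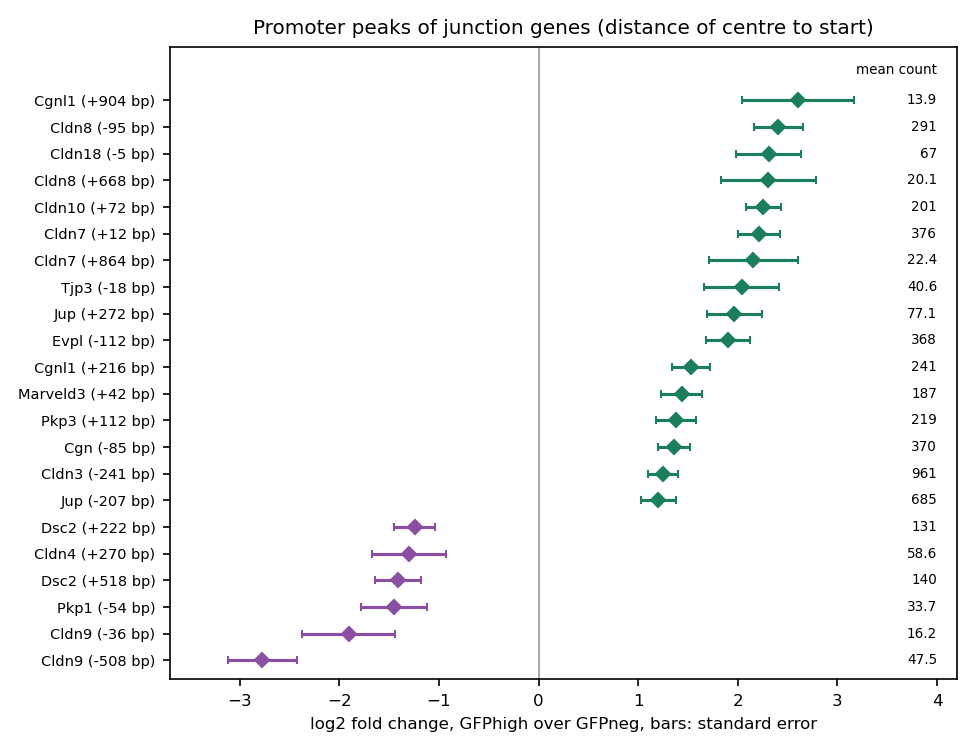
The log2 fold change with its standard error (x axis) of the 22 promoter peaks, with the distance of the peak's centre from the start site beside each gene and the mean normalised count at the right. The opened peaks run from 1.20 (Jup) to 2.61 (Cgnl1) and the closed ones from -1.24 (Dsc2) to -2.78 (Cldn9).

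Claudins are membrane proteins that cross the bilayer several times, and some tighten the barrier while others form pores. *Cldn7*, *Cldn8* and *Cldn18* had opened peaks only. At *Cldn7*, found in many simple epithelia, the peak 12 bp downstream of the start had a log2 fold change of 2.21 (SE 0.21, adjusted p = 6.98e-24) with a mean count of 376, the second promoter peak, 864 bp downstream, had 2.16 (SE 0.45), and an intronic peak had 2.03. At *Cldn8*, a barrier claudin of the kidney and other epithelia, the peak 95 bp upstream of the start had 2.41 (SE 0.25, adjusted p = 1.32e-21) and the promoter peak 668 bp downstream had 2.31 (SE 0.48). The peak with the smallest adjusted p at *Cldn8* lay 23.0 kb downstream (3.70, SE 0.35, adjusted p = 1.15e-24).

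*Cldn18*, a claudin of the alveolar and gastric epithelium, had 7 opened peaks. The authors' table gave 4.52 (SE 0.32, adjusted p = 6.19e-44) for the region 24.6 kb downstream of the start part of which is shown above and which lies past the end of the gene. A narrower peak beside it had 4.50 (SE 1.01). The promoter peak had 2.31 (SE 0.33, adjusted p = 6.78e-12) and lay 5 bp upstream of the most downstream of 3 annotated starts. The most upstream start lies 7253 bp before that peak, which was the listed peak nearest to it. No listed peak lay within 1 kb of that upstream start.

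*Cldn10* makes paracellular pores and has alternative first exons. It had 15 peaks, 11 of them opened, which was the highest number with *Tjp1*. The opened promoter peak lay 72 bp downstream of the most downstream of 3 annotated starts (2.26, SE 0.18, adjusted p = 2.71e-36, mean count 201). The other starts lie far upstream of it, and the listed peak nearest to them was an opened one 33.4 kb away (3.96). Opened peaks with larger changes lay in the intron between them, the largest at 31.7 kb upstream of the downstream start (5.75, SE 0.65). In the same intron lay closed peaks, among them the closed *Cldn10* peak with the smallest adjusted p (12.9 kb upstream, -2.66, SE 0.24, adjusted p = 9.22e-27). Opened and closed peaks thus alternated within 1 gene.

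*Cldn3* and *Cldn4*, which bind the enterotoxin of Clostridium perfringens and are common in simple epithelia, are neighbours on chromosome 5 with 39.3 kb between them and no other protein-coding start in that gap. Their promoters moved in opposite directions. The *Cldn3* promoter peak, with the highest mean count of the 194 peaks (961), had a log2 fold change of 1.25 (SE 0.15, adjusted p = 4.89e-16). The *Cldn4* promoter peak had -1.30 (SE 0.37, adjusted p = 8.01e-04) with a mean count of 58.6, which was close to the limit of the list.

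Along the locus the listed peaks fell into blocks of 1 direction. The first 5 peaks, at *Mettl27* and *Cldn4*, were closed over 24.0 kb, and the next 12 were opened over 29.3 kb (chr5:134963671-134992942). The block change lay between the closed peak 12.4 kb upstream of *Cldn4* (-2.27, SE 0.21, adjusted p = 1.20e-25) and the opened peak 16.8 kb upstream of it (5.56, SE 0.61, adjusted p = 4.66e-19), the opened *Cldn4* peak with the smallest adjusted p. Of the 12 opened peaks 10 were nearest to *Cldn3*, among them the one 6.58 kb downstream of its start (4.09, SE 0.39, adjusted p = 2.76e-24). A closed peak 10.7 kb downstream of *Cldn3* ended the block (-3.51, SE 0.46, adjusted p = 1.37e-13). The other opened peaks upstream of *Cldn3* reached 5.30 (SE 0.63).

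**Figure D4:**
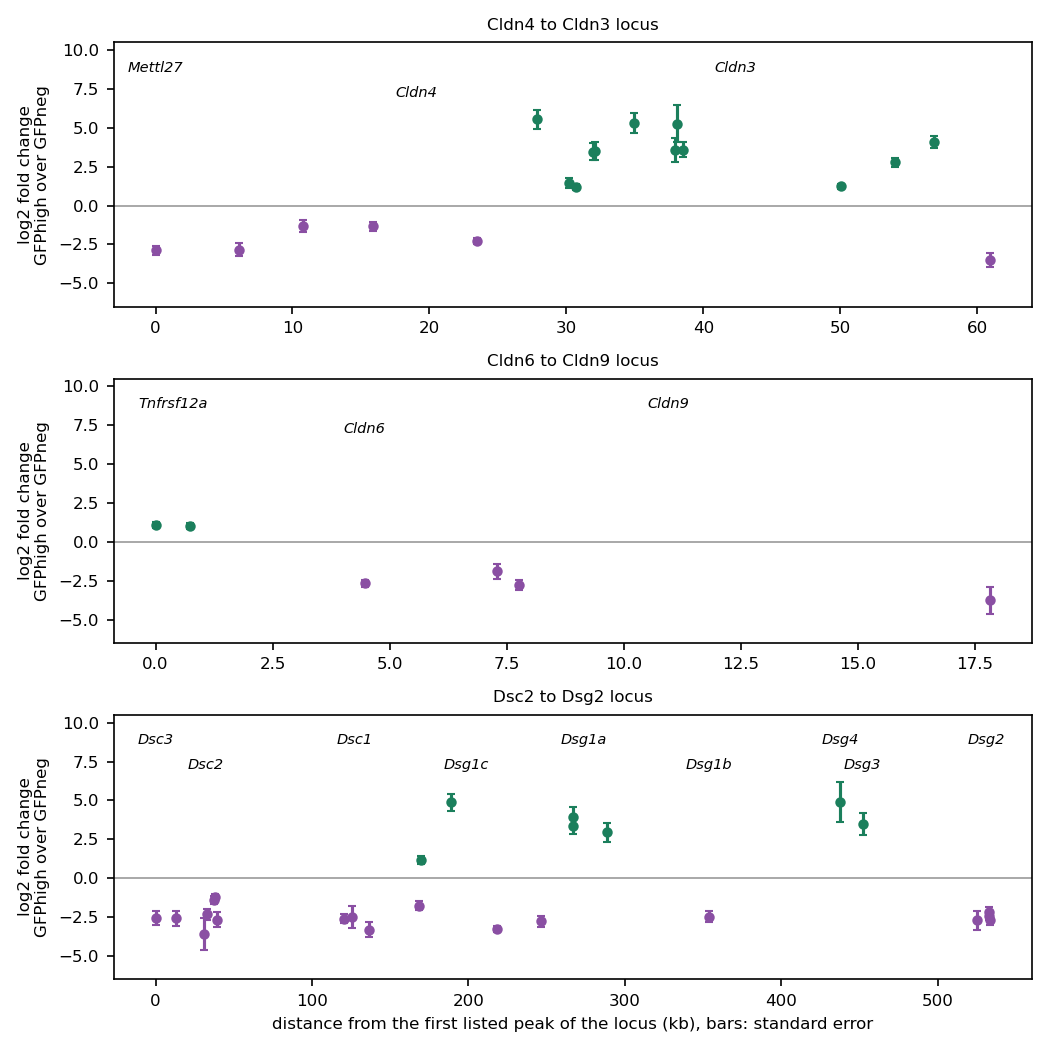
Log2 fold change with its standard error (y axis) of every listed peak in 3 loci against the distance from the locus's first listed peak (x axis, kb). Names at the top stand at the mean position of neighbouring peaks assigned to that gene. At Cldn4 and Cldn3 a block of 5 closed peaks is followed by 12 opened ones and 1 closed one, the 4 peaks of Cldn6 and Cldn9 are closed, and at the desmosomal cadherin cluster 18 of 25 peaks are closed.

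*Cldn6* and *Cldn9*, claudins best known from embryonic epithelia and the inner ear, lie 138 bp apart on chromosome 17, and all 4 of their peaks were closed. The *Cldn6* peak lay in an exon 1.59 kb downstream of the most downstream of 3 annotated starts and had -2.66 (SE 0.22, adjusted p = 3.34e-32, mean count 180). The *Cldn9* promoter peaks had -2.78 (SE 0.35, adjusted p = 7.29e-15) 508 bp upstream of the start and -1.91 (SE 0.47) 36 bp upstream. The gene before them, *Tnfrsf12a*, had 2 opened peaks in the same window. The nearer of these peaks (1.04) lay 1744 bp upstream of the most upstream *Cldn6* start and was the listed peak nearest to it.

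Other closed claudins had no promoter peak. *Cldn11*, the claudin of myelin and of Sertoli cells, had 5 closed peaks between 14.6 and 26.2 kb upstream, the strongest at 14.6 kb (-2.29, SE 0.31, adjusted p = 5.86e-13). *Cldn16*, a magnesium-handling claudin of the kidney, had 1 closed peak 15.3 kb upstream (-2.53, SE 0.25, adjusted p = 7.01e-23). The 1 closed peak of *Cldn20* lay in an intron of *Tiam2* (-3.00, SE 0.61, adjusted p = 2.80e-06). *Cldn14*, a claudin of the inner ear and kidney, had 6 closed and 2 opened peaks. Its strongest closed peak had -3.11 (SE 0.34, adjusted p = 3.79e-19) and its strongest opened peak 2.12 (SE 0.30, adjusted p = 4.50e-12).

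The remaining claudins had distal peaks only. *Cldn23* had 4 opened and 3 closed peaks, with the opened region shown above 71.8 kb upstream (4.91, SE 0.30, adjusted p = 1.32e-58, a 30.1-fold change) and a closed peak 122 kb upstream (-2.59, SE 0.20, adjusted p = 5.23e-38). The peaks of *Cldn2*, a pore-forming claudin for cations, included an opened intronic one with 3.09 (SE 0.28, adjusted p = 1.43e-27) and a closed one 6.80 kb upstream with -2.87 (SE 0.73). *Cldn1*, a barrier claudin of the epidermis, had 1 closed peak 12.6 kb upstream (-2.58, SE 0.43) and 1 opened peak 55.3 kb downstream (3.80, SE 0.78, mean count 11.9).

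Some claudin peaks lay inside another gene. All 5 *Cldn22* peaks were opened and lay in the body of *Wwc2*, the strongest in an exon 4.05 kb downstream of the *Cldn22* start (4.80, SE 0.32, adjusted p = 1.03e-47). The stronger *Cldn19* peak lay in an intron of *P3h1* (2.32, SE 0.25, adjusted p = 9.88e-20). *Cldn5*, the main claudin of endothelium, had its strongest opened peak in an intron of *Cdc45* (4.54, SE 0.50, adjusted p = 2.37e-18), its strongest closed peak 43.5 kb upstream (-2.53, SE 0.51) and no promoter peak. In all, 12 of the 194 peaks lay in the body of another protein-coding gene and not in that of the assigned gene, and 9 of them were opened.

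Of the MARVEL genes, *Ocln* encodes occludin, and *Marveld2* encodes tricellulin, which seals the corners where several cells meet. These neighbours, 43.2 kb apart on chromosome 13, had 9 opened peaks of 10. The strongest *Ocln* peak lay in an intron (1.51, SE 0.18, adjusted p = 1.57e-16, mean count 387), and the 1 closed peak, also intronic, had -1.19 (SE 0.31, adjusted p = 2.79e-04). The opened *Ocln* peaks ran from 1.10 to 1.67, a narrow range beside the 2.06 to 3.95 of *Marveld2*, whose strongest peak had 2.98 (SE 0.43, adjusted p = 1.36e-11). *Marveld3* had an opened promoter peak (1.44, SE 0.20, adjusted p = 1.13e-11) and, 3.80 kb downstream, an intronic peak with 2.88 (SE 0.22, adjusted p = 1.23e-38). *F11r*, which encodes JAM-A, had 3 opened intronic peaks and no promoter peak, with 3.27 (SE 0.34, adjusted p = 3.22e-21) at the strongest.

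The scaffold genes encode the cytoplasmic plaque of the tight junction. *Tjp1* (ZO-1) had no promoter peak, and 9 of its 15 peaks were opened ones upstream of the start, at 17.5 to 127 kb. The region shown above, 98.9 kb upstream, had 2.64 (SE 0.17, adjusted p = 6.25e-55, mean count 384), and a peak 84.9 kb upstream had 7.24 (SE 0.87, mean count 60.0), the largest change of the 194 peaks. Its strongest closed peak was intronic (-3.63, SE 0.58, adjusted p = 1.55e-09). *Tjp3* (ZO-3) had 7 peaks within 6.30 kb of its start, and all 7 were opened. Its promoter peak had 2.04 (SE 0.37), and the intronic peak 5.41 kb downstream had 1.75 (SE 0.18, adjusted p = 1.75e-20).

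The cingulin genes had opened peaks only. *Cgn*, which encodes cingulin, had a promoter peak with 1.36 (SE 0.16, adjusted p = 1.73e-16, mean count 370) and an intronic peak 2.02 kb downstream with 2.53 (SE 0.20, adjusted p = 7.77e-36). Another peak lay 1.08 kb upstream (2.94, SE 0.27). *Cgnl1*, which encodes paracingulin, had 9 opened peaks. Its promoter peaks had 1.53 (SE 0.19, adjusted p = 1.51e-14) and 2.61 (SE 0.56), and the strongest peak, 21.4 kb downstream, had 3.74 (SE 0.36, adjusted p = 4.28e-24). The 5 opened *Cgnl1* peaks between 44.1 and 81.7 kb downstream had mean counts of 10.1 to 19.9, below the median of 37.9 for the opened peaks of all the junction genes.

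In the desmosome, the cadherin genes went the other way. All 6 *Dsc2* and all 4 *Dsg2* peaks were closed. *Dsc2* encodes desmocollin 2 and *Dsg2* desmoglein 2, the desmosomal cadherins of simple epithelia and heart. The *Dsc2* promoter peaks had -1.24 (SE 0.21, adjusted p = 5.55e-09, mean count 131) and -1.41 (SE 0.23, adjusted p = 3.79e-09, mean count 140), and its strongest peak, in an intron 4.80 kb downstream, had -2.33 (SE 0.34, adjusted p = 6.43e-11). The strongest *Dsg2* peak, 3.54 kb upstream, had -2.47 (SE 0.22, adjusted p = 4.19e-27, mean count 186). The 4 *Dsg2* peaks ran from -2.21 to -2.71, and the *Dsc2* peaks from -1.24 to -3.60. Both genes lie in 1 cadherin cluster. Between 10 kb before *Dsc2* and 10 kb past *Dsg2*, 18 of the 25 listed peaks were closed. The 7 opened ones were nearest to *Dsg1a*, *Dsg1c*, *Dsg3* and *Dsg4*, genes of the stratified epithelia. Closed peaks there were also nearest to other cadherin genes than *Dsc2* and *Dsg2*, namely *Dsc1*, *Dsc3*, *Dsg1b* and *Dsg1c*. *Dsg1c* itself had 3 closed and 2 opened peaks.

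The armadillo proteins link the cadherins to the plakins. *Jup*, which encodes plakoglobin, had 7 peaks, all opened. Its promoter peaks had 1.20 (SE 0.18, adjusted p = 5.94e-11, mean count 685) and 1.97 (SE 0.28, adjusted p = 7.23e-12), and an intronic peak 10.9 kb downstream had 1.80 (SE 0.20, adjusted p = 2.26e-18). The 1 peak of *Pkp3*, plakophilin 3, was its promoter (1.38, SE 0.20, adjusted p = 2.06e-11). *Pkp2*, plakophilin 2, the form of simple epithelia and heart, changed both ways: the region shown above, 3.51 kb upstream, was closed (-3.34, SE 0.27, adjusted p = 1.51e-34), and an intronic peak 11.4 kb downstream was opened (2.02, SE 0.17, adjusted p = 3.28e-31, mean count 255). The promoter of *Pkp1*, plakophilin 1, was closed (-1.45, SE 0.33, adjusted p = 2.64e-05), as was a peak 14.8 kb upstream (-2.51, SE 0.27, adjusted p = 1.84e-19), while its strongest opened peak lay 35.6 kb downstream (3.37, SE 0.56, adjusted p = 7.80e-09).

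The plakin genes differed from each other. *Dsp*, which encodes desmoplakin, the plakin that desmosomes need, had 6 closed peaks of 8. The strongest closed peak lay 27.4 kb upstream (-2.47, SE 0.36, adjusted p = 3.09e-11), and the 4 closed peaks in its introns ran from -1.25 to -2.30. The opened *Dsp* peaks had low mean counts of 7.68 and 11.4, and the stronger had 3.29 (SE 0.70, adjusted p = 6.96e-06). *Ppl* encodes periplakin and *Evpl* envoplakin, plakins of the cornified envelope that also occur in other epithelia. The opened *Ppl* region shown above, 4.26 kb upstream, had the smallest adjusted p of the 194 peaks (3.09, SE 0.17, adjusted p = 2.31e-71, an 8.54-fold change, mean count 409) and ranked 353 among the 40828 opened peaks by p. Beside it lay 2 more opened peaks, 3.72 and 2.69 kb upstream, of which the one at 2.69 kb had 1.39 (SE 0.20). The strongest closed *Ppl* peak lay 8.88 kb downstream in an intron (-2.26, SE 0.27, adjusted p = 4.09e-16). All 5 *Evpl* peaks were opened, among them the promoter peak (1.90, SE 0.22, adjusted p = 8.27e-17, mean count 368) and a peak in an intron of *Srp68* (3.23, SE 0.32, adjusted p = 5.93e-23).

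Chromosome 11 holds *Cldn7*, *Jup* and *Evpl*, and all 15 of their peaks were opened. From 50 Mb to the end of this chromosome, a stretch chosen after its values were seen, 79.8% of the 3939 listed peaks of other genes were also opened. Its part in the result for these 3 genes was not tested. On the other chromosomes 118 of 179 junction gene peaks (65.9%) were opened, against 49.4% of all listed peaks there.

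By position, the 133 opened peaks were 16 promoter, 5 exonic, 65 intronic and 47 intergenic ones. The intronic share was 48.9%, against 45.0% of all opened peaks, and the promoter share 12.03%, against 18.8%. The 61 closed peaks were 6 promoter, 2 exonic, 24 intronic and 29 intergenic ones, with an intergenic share of 47.5% against 37.6%. The peaks lay near their genes: the median distance was 11.8 kb for the opened and 12.9 kb for the closed peaks, against 17.5 and 42.4 kb over all listed peaks, and 4 of 194 (2.06%) lay beyond 100 kb, against 21.1%. In the body of the assigned gene lay 93 peaks, 68 of them opened (73.1%), and outside any protein-coding gene 89, 56 of them opened (62.9%). The opened peaks were narrower than the listed opened peaks as a whole, with a median width of 247 bp against 300 bp. No closed peak of a junction gene exceeded a 16-fold change, against 2.62% of all closed peaks, and 25 opened peaks (18.8%) did, against 23.3%.

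The motif strings were searched as exact letters on both strands of each whole peak, and the same string was counted in all listed peaks of the same direction. The E-box CAGGTG, which SNAI and ZEB repressors of epithelial genes can bind, was in 31 of 61 closed peaks (50.8%, Wilson interval 38.6 to 62.9), against 34.6% of all closed peaks. In the opened peaks it was in 40 of 133 (30.1%), against 26.6%. The TEAD string CATTCC was in 42 opened peaks (31.6%, interval 24.3 to 39.9), against 25.4%, and in 4 closed peaks (6.56%), against 11.99%. The AP-1 string TGANTCA was in 26 opened peaks (19.5%), against 15.1%, and in 21 closed peaks (34.4%), against 29.9%. Of these shares only that of CAGGTG in closed peaks had an interval that did not reach the share over all listed peaks, and it was 1 of 14 such comparisons. The intervals count each peak as independent, although several of the closed peaks with CAGGTG belonged to 1 gene, as at *Cldn14* and *Dsp*.

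The intervals of the other strings reached the share over all listed peaks. The grainyhead string AACCNGTT was in 7 opened (5.26%, against 4.83%) and 2 closed peaks (3.28%, against 2.07%). The RBPJ string TGGGAA was in 37 opened (27.8%, against 30.6%) and 14 closed peaks (23.0%, against 21.5%). The FOX string TGTTTAC was in 11 opened (8.27%, against 9.50%) and 8 closed peaks (13.1%, against 11.4%). The NKX2 string CACTTGA was in 13 opened (9.77%, against 9.28%) and 3 closed peaks (4.92%, against 6.36%). Matches of the TEAD and RBPJ strings overlapped in 5 of the 194 peaks, those of the AP-1 string and CAGGTG in 3, and other pairs of strings in at most 1 peak. The strings were also counted in windows of 1 length, the central 200 bp, which hold flanking bases where a peak is narrower than 200 bp. In these windows CAGGTG was found for 37.7% of the closed peaks (interval 26.6 to 50.3), against 28.7%. For the opened peaks the share was 26.3% (interval 19.6 to 34.4), against 16.4%. There the interval of the closed peaks reached the share over all listed peaks, and that of the opened peaks did not.

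**Figure D5:**
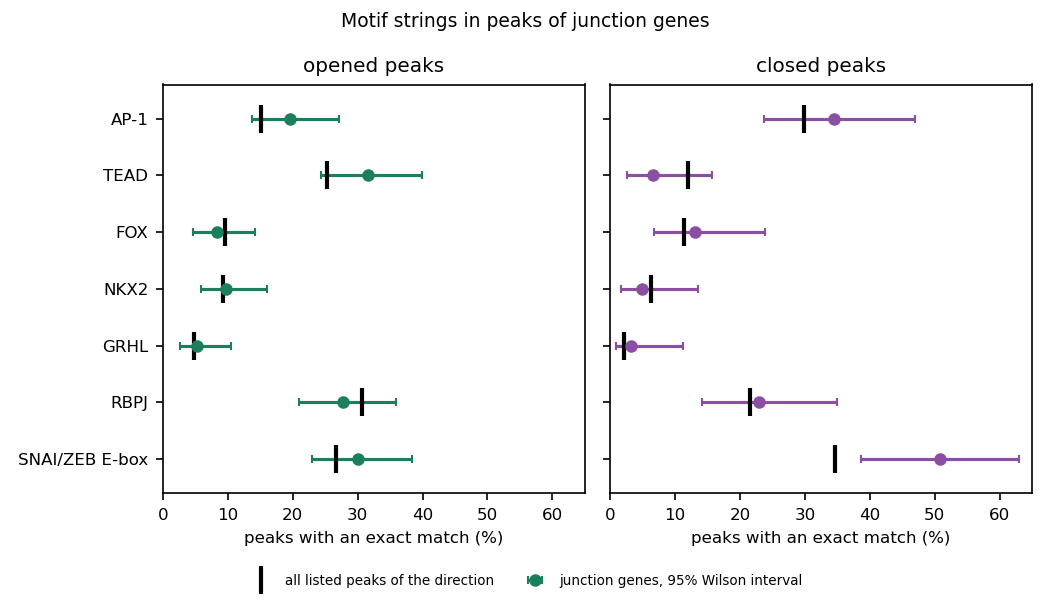
Share of peaks with an exact match of each motif string (x axis, percent) in opened (left) and closed peaks (right). Points are peaks of the junction genes with 95% Wilson intervals, and black ticks are all listed peaks of that direction. The E-box of SNAI and ZEB factors in closed peaks is the 1 point whose interval does not reach its tick. The intervals take the peaks as independent, which those of 1 gene are not.

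Other junction genes, from lists chosen as background, had lower shares of opened peaks, and no test was made of the difference. Of 18 other tight junction receptor and polarity genes, 118 of 223 peaks were opened (52.9%), of 9 adherens junction genes 77 of 127 (60.6%), and of 9 other desmosome genes 17 of 50 (34.0%). Over these 36 genes the opened share was 53.0%, beside 68.6% for the genes described here and 50.8% for all listed peaks. *Cdh1*, which encodes E-cadherin, had an opened promoter (1.45, SE 0.19), as had *Ctnnb1* (1.90), *Ctnna1* (1.49) and *Nectin1* (2.17). Of the polarity genes, *Pard6b* (2.09), *Magi1* (1.59), *Pard3* (1.14), *Crb3* (1.08) and *Magi3* (1.08) had opened promoters, and *Patj* (-3.19), *Magi2* (-2.95) and *Jam3* (-2.04) closed ones. Of the other desmosome genes, *Perp* (3.81) and *Dsg1a* (2.94) had opened promoter peaks and *Pkp4* (-2.78) a closed one.

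The sorted populations were checked by genes of known cell types. All 5 non-NE genes (*Hes1*, *Notch2*, *Rest*, *Yap1* and *Scgb1a1*) had an opened promoter, and 57 of their 77 peaks were opened. *Hes1*, with 26 opened of 37 peaks, is the locus of the GFP used for the sort, so it is no independent check. Of 7 NE genes, 6 had a closed promoter (*Syp* had no listed peak), and 53 of 64 peaks were closed. Genes of endothelium had 23 opened of 75 peaks, of leukocytes 21 of 33 and of fibroblasts 10 of 23, with an opened promoter at *Kdr*, *Egfl7*, *Lcp1* and *Col1a1*, a closed one at *Tek*, *Erg*, *Coro1a* and *Col1a2*, and no listed peak at *Cd79a*, *Col3a1*, *Pdgfrb* and *Lum*. CD45 marks leukocytes, CD31 endothelium and TER-119 red blood cells. By the wording of the study's methods, these served to remove such cells, and CD24 to select the tumor cells. The part of such cells in the peaks of the junction genes was not tested.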

How the data were processed

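ATAC-seq compared GFPhigh with GFPneg SCLC cells in 8 libraries on 2 lanes each. The authors trimmed the paired reads of 50 bp, aligned them to mm10 with Bowtie2 2.3.4.1, removed duplicates with Samtools, called narrow peaks with MACS2 with reads shifted to the Tn5 insertion sites, merged these over all samples and took reads per merged peak with bedtools. The authors compared the groups with DESeq2 1.28.1 and kept peaks with an absolute log2 fold change over 1 and an adjusted p under 0.001. The deposited signal is the mean over all libraries of counts divided by size factors. The deposited log2 fold change has its standard error in a score column, and the deposited p-values are those of the Wald test, raw and with Benjamini-Hochberg adjustment. These columns belong to the authors' own comparison and were neither refitted nor tested further. The table of peaks that did not pass was not analysed here, so the depth per library is unknown. How lanes and the technical replicate entered the fit is not given in the sources used here.

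Peaks were assigned by their centre to the nearest protein-coding start of the basic GENCODE M21 annotation on GRCm38.p6 (mm10), with Python 3.11.15, pysam 0.24.0, scipy 1.17.1, pandas 2.3.3, numpy 2.4.6 and matplotlib 3.10.9. Classes were promoter (within 1 kb), then exon, intron (of any biotype) and intergenic. Of 7 motif strings exact matches were counted. A few genes and 1 string are not reported here and were left out of every count over the lists. Intervals are Wilson intervals at 95% and count each peak as independent, which peaks of 1 gene are not. The assignment and string search were tested on simulated data. Named peaks are every promoter peak of a junction gene and, per gene, the peak of each direction whose adjusted p was smallest. A few others, such as the peaks beside Ppl and Cgn and the largest changes, were named after their values were seen. For other lists, values are given for genes with a promoter peak, as the one with the smallest p. The genes, lists, strings and alternatives were chosen with earlier results of these data known. No figure of a library or a mouse could be given, and no set test was made.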

Additional observations from a re-analysis of the deposited data

How the results depend on the processing

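No paired analysis was possible because the values are those of the whole comparison and hold no counts per library, and for the same reason no library was left out. The share of opened peaks near the junction genes (68.6%) was above that of all listed peaks under each of 11 alternatives and ran from 65.9% (without chromosome 11) to 73.8% (without the desmosome and plakin genes, an alternative added after seeing the data, as was leaving out peaks in the body of another gene, 68.1%). The matching share over all listed peaks also changed. It ran from 46.9% (absolute log2 fold change over 2, with 68.6% near the junction genes) to 55.7% (at most 100 kb from the start site, with 68.9%). The number of peaks fell from 194 to 130 when start sites of every biotype could take a peak. With promoters of up to 3 kb, 7 genes had a closed promoter peak instead of 4, and 15 an opened one instead of 12, against 12.8% and 30.4% of all protein-coding genes. The central 200 bp was a shorter window for wider peaks, and for peaks narrower than 200 bp it took in flanking bases. In this window 5 of 14 shares of motif strings moved out of their intervals. CAGGTG in closed peaks moved from 50.8% to 37.7%, where its interval reached the share over all listed peaks. NKX2 in closed peaks moved from 4.92% to 1.64%. In opened peaks TEAD moved from 31.6% to 24.1%, AP-1 from 19.5% to 11.3% and FOX from 8.27% to 4.51%. CAGGTG in opened peaks (26.3%, against 16.4%) was there the 1 share whose interval did not reach that of all listed peaks. Without promoter peaks all 14 shares of motif strings stayed within their intervals. The depth per library is unknown, and its part in the absence of a listed peak was not tested.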

Other observations

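Transcription factors and splicing factors that act on epithelial junction genes had peaks of their own. Of 13 such genes, 76 of 119 peaks were opened (63.9%, against 50.8% of all listed peaks). *Grhl2*, a grainyhead factor that activates epithelial genes, had 25 opened peaks of 28, with an opened promoter (2.26 on the log2 scale as the authors deposited it, SE 0.16, adjusted p = 2.30e-45). Opened promoters were also found at *Ovol1* (2.37), *Esrp2* (2.25), *Ovol2* (1.35), *Elf3* (1.19) and *Grhl3* (1.04), transcription or splicing factors that favour the epithelial state. *Grhl1* (4 opened and 3 closed peaks) and *Esrp1* (1 opened peak) had no promoter peak. Of the 13 genes, 53.8% had an opened and 23.1% a closed promoter peak, against 26.6% and 8.45% of all protein-coding genes. A gene with both counts in each share. Of the repressors of epithelial genes, *Snai1* had an opened promoter (1.91), *Snai2* (-1.07) and *Twist1* (-1.87) had closed ones, and *Zeb1* and *Zeb2* had none, with 5 of the 11 *Zeb1* and 26 of the 35 *Zeb2* peaks closed. Whether these genes act on the junction genes was not tested.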
